A study of Homo sapiens with 8 samples.

Results

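Of the 27696 genes in the count table, 9 are described here: the cyclin-dependent kinase (CDK) inhibitors CDKN1A, CDKN1B, CDKN1C, CDKN2A, CDKN2B and CDKN2C, and the senescence-linked genes MDM2, RB1 and LMNB1. The list was set by gene symbol, with earlier results of these data known, and all 9 passed the filter on low counts. The recipient cells were IMR90, primary human lung fibroblasts that carry no inducible oncogene. They spent 3 days in medium that IMR90-ER:RAS fibroblasts had conditioned, per the methods without serum, with a little serum added back afterwards. Those donor cells carry an ER:RAS cassette, switched on by 4-OHT (4-hydroxytamoxifen), and are driven into oncogene-induced senescence. The medium was taken from the donors at day 0, 4, 7 or 10 of induction, which names the groups D0, D4, D7 and D10, so the D0 controls also received medium from ER:RAS cells, at day 0 of induction. Each of the 4 groups had 2 libraries, replicates 1 and 2, from 2 independent experiments. Libraries with the same replicate number were taken as the same experiment, a pairing that the sample titles do not state. The question was whether 3 days in medium of senescent donors were accompanied by an arrest signature in cells that lack the oncogene. The study itself reports that IMR90 fibroblasts given late medium took on a senescent phenotype. That phenotype was not examined here, where only RNA counts were used.

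Senescent cells leave the cell cycle for good because CDK inhibitors keep cyclin-CDK complexes inactive, so that the retinoblastoma protein stays unphosphorylated and silences the E2F target genes needed for S phase. The p53 pathway acts through p21CIP1, the product of CDKN1A, and also switches on MDM2, the ubiquitin ligase that removes p53, whereas the INK4 proteins of CDKN2A and CDKN2B bind CDK4 and CDK6 directly. Loss of lamin B1, a nuclear lamina protein encoded by LMNB1, is a widely used marker of senescence in fibroblasts, and senescent cells also secrete cytokines and chemokines (the senescence-associated secretory phenotype, SASP) that can act on their neighbours.

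None of the 9 members differed from D0 at an adjusted p under 0.05 with any medium. Beside 0 members called at D4, D7 and D10, edgeR's quasi-likelihood test (Benjamini-Hochberg adjusted over 13798 genes) called 0%, 0% and 0.29% of all genes on these days. At an unadjusted p under 0.05 the same test again held 0 members on each day, beside 2.96%, 4.34% and 7.94% of all genes. DESeq2 called 0 members beside 0.341%, 0.848% and 2.83% of all genes, and 0 members had an unadjusted p under 0.05 there either. With the experiment as a replicate block, 0 members were called beside 0.275%, 1.25% and 4.99% of all genes, and 0, 0 and 3 members had an unadjusted p under 0.05 at D4, D7 and D10, where 8.15%, 10.6% and 18.2% of all genes did. Between the experiments this fit called 4 of the 9 members, CDKN2A, MDM2, RB1 and LMNB1, beside 34.8% of all genes. Per length of exon, CDKN1A ranked 55 of 13771 genes by its mean over the 8 libraries, and no rank was taken for D0 medium alone.

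Promoter sequences are shown for the genes on which these comparisons turn. RefSeq windows (GRCh38.p14) from 250 bases before to 50 bases after an annotated start were found for 8 of the 9 members, 15 windows in all. The GC box GGGCGG, a motif of promoters bound by Sp1-type factors, was searched on both strands and is in capitals in the first 4 sequences. It occurred in 11 of the 15 windows and in 45.0% of the 35116 windows of all genes. CDKN1A has 1 window, at chr6:36678464-36678763 on the plus strand. CDKN2A has 2, both on the minus strand, for p14ARF at chr9:21995275-21995574 and for p16INK4A at chr9:21974808-21975107. CDKN2B, next to CDKN2A on the same strand, has its window at chr9:22009256-22009555. The inner start of MDM2, at chr12:68808767-68809066 on the plus strand, is shown for a p53 consensus of 2 adjacent half-sites, in capitals, with 2 mismatches over 20 bases. At most 2 mismatches occurred in 0.649% of all windows, and MDM2's 2 overlapping inner windows share this match. At most 3 mismatches occurred in 5 of the 15 member windows, those of MDM2, CDKN1B, CDKN2B and RB1, and in 5.2% of all windows. The best stretch in the CDKN1A window had 5 mismatches. Sites more than 250 bases before a start lie outside these windows and were not searched, so a window without a match does not show that a gene lacks one. RB1's window, chr13:48476200-48476499, lies inside the gene and not at its annotated 5' end. A motif match is a description and not a binding site.
CDKN1A: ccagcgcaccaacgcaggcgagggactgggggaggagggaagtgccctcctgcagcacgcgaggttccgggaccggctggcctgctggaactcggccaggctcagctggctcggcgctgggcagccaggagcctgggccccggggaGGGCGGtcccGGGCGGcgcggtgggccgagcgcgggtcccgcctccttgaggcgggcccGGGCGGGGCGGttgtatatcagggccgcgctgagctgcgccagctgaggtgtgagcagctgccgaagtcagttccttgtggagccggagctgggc
CDKN2A, p14ARF start: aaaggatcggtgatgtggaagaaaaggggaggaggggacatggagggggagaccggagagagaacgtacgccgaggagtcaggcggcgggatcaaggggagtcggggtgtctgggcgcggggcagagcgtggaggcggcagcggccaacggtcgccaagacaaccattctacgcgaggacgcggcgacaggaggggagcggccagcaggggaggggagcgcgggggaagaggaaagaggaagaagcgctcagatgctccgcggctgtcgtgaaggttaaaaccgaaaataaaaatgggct
CDKN2A, p16INK4A start: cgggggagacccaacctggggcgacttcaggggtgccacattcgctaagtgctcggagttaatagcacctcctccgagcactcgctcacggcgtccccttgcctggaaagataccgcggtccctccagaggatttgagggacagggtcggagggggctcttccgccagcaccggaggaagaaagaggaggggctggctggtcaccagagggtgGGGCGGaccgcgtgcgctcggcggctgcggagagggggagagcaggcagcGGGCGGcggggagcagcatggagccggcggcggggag
CDKN2B: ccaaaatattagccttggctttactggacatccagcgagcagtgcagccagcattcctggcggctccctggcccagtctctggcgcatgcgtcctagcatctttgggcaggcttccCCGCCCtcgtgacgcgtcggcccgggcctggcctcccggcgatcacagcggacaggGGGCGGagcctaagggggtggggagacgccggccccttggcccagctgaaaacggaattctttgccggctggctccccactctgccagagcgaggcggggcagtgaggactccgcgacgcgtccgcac
MDM2, inner start: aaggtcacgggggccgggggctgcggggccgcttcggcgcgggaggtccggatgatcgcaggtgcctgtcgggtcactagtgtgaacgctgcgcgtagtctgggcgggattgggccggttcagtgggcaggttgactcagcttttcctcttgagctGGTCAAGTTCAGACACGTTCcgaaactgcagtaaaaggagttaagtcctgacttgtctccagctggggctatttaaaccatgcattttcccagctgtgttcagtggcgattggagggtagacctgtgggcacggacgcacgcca

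The second sequence held no GC box and the third held 2, so both CDKN2A products start from windows that differ in this motif. A count per gene sums p16INK4A and p14ARF and does not separate them.

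Some sequence is shared with other genes. In CDKN2A 7.17% and in CDKN2B 0.765% of the 50-base words occur in another gene, and 7.88% of CDKN2A exon bases lie opposite the antisense gene CDKN2B-AS1. For CDKN1A, 4.79% of exon bases lie opposite DINOL, and for MDM2 6.91% lie opposite other genes and 10.4% of the words occur elsewhere. Whether the authors counted by strand is not given in the sources used here, so these small shares could be assigned to either gene. The words of the other 5 members occur in no other gene.

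Total counts ranged from 11708193 to 13395912 per library. In a principal component analysis the first component (45.9% of the variance) separated the experiments within every group, and D10 replicate 2 lay farthest out. All 9 fibroblast markers were present, with a summed level of 10060 to 46796 CPM (read counts scaled to a common library size after TMM normalization). That sum was 33089 to 46796 CPM at D0 and 10060 to 34653 CPM at D10, and its part in the members' values was not tested. The epithelial, endothelial and leukocyte marker sums stayed at or below 0.764, 3.90 and 3.10 CPM in every library. HRAS, whose oncogenic form is in the donor cassette, had a log2 difference of -0.18 between D10 and D0, and ESR1 did not exceed 0.298 CPM. As a check of the medium, CXCL8, the gene of the SASP chemokine IL-8, was at 1.01 and 2.77 CPM at D0 and at 189 and 3012 CPM at D10. Its adjusted p was 0.0656 (edgeR), and 0.000747 with the replicate block.

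Levels of different genes can be compared only per length of exon. Per kilobase (kb), CDKN1A averaged 487 CPM over the 8 libraries, rank 55 of 13771 genes, and its lowest library, 344 CPM per kb, lay far above every library of every other member. MDM2 (10.3 CPM per kb), CDKN2B (9.60), CDKN2A (8.94), CDKN1B (6.79) and RB1 (6.03) followed. The ranges of these 5 over the libraries overlapped, as did those of the next neighbours in the order, CDKN1C (2.81), LMNB1 (1.46) and CDKN2C (0.735). Counts behind these levels were lowest for CDKN2C, 20 to 44 reads per library, and highest for CDKN1A, 13810 to 23419 reads. In these bulk samples, fewer cells of a type and less RNA per cell cannot be told apart.

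**Figure D1:**
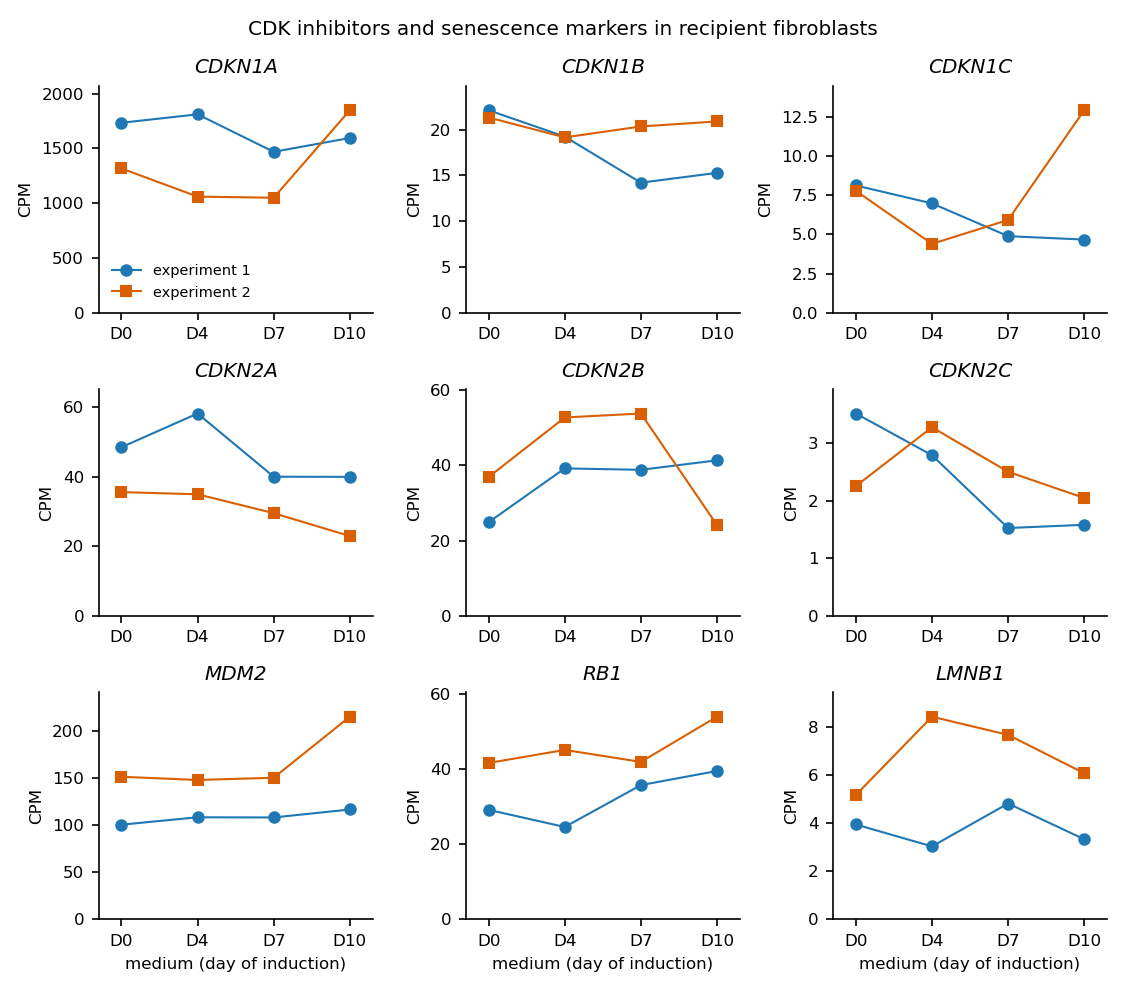
Expression of the 9 members in CPM (vertical axes, from 0) against the medium, 1 point per library and 1 line per experiment. CDKN1A lies between 1049 and 1847 CPM in all 8 libraries, and the lines of experiment 2 lie above those of experiment 1 in all 4 media for MDM2, RB1 and LMNB1 and below for CDKN2A.

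The CIP/KIP inhibitors bind cyclin-CDK2 and cyclin-CDK4/6 complexes. CDKN1A (ENSG00000124762.13, chr6:36676460-36687339), the p53 target that encodes p21CIP1, stood at 1733 and 1316 CPM at D0, in experiments 1 and 2. D4 medium gave 1810 and 1059 CPM and D7 medium 1468 and 1049 CPM. At D10 it was at 1594 and 1847 CPM. The groups overlapped on each day, experiment 1 was the higher in 3 of the 4 media, and at D10 the order turned. The log2 fold change at D10 was 0.17 (standard error 0.35), with a 95% interval from -0.64 to 0.99 and an adjusted p of 0.998 from edgeR's quasi-likelihood test. That interval reaches up to 1.99-fold higher. With the replicate block the D10 interval was narrower, from 0.780-fold to 1.72-fold of D0. Within the experiments the D10 difference was -0.12 and 0.49 on the log2 scale. At D4 and D7 the fit gave -0.09 and -0.28.

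CDKN1B (ENSG00000111276.10, chr12:12715058-12722371), which encodes p27KIP1, an inhibitor typical of quiescent cells, was at 22.1 and 21.3 CPM at D0. D4 medium gave 19.2 and 19.2 CPM, D7 medium 14.2 and 20.4 CPM, and D10 medium 15.3 and 20.9 CPM. Both libraries of each later medium lay below both D0 libraries, by a small margin in experiment 2. The log2 fold changes were -0.18, -0.33 and -0.26 (standard error 0.26 each), and the D10 interval ran from -0.87 to 0.34. At D10 the difference was -0.53 in experiment 1 and -0.03 in experiment 2.

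CDKN1C (ENSG00000129757.12, chr11:2883213-2885773) encodes p57KIP2, an imprinted inhibitor of the same family. It had 8.13 and 7.79 CPM at D0, 6.98 and 4.40 with D4 medium, 4.89 and 5.92 with D7 medium, and 4.67 and 12.9 at D10. Values at D4 and D7 lay below D0 in both experiments, while the D10 libraries lay on either side of it. The log2 fold change at D10 was 0.15 with a 95% interval from -0.95 to 1.24, and -0.77 without D10 replicate 2. Where D10 replicate 2 is left out, here and for the genes that follow, D10 rests on experiment 1 alone while D0 keeps both experiments. At D4 and D7 it was -0.48 and -0.56, with intervals that spanned 0.

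The INK4 inhibitors act on CDK4 and CDK6 alone. CDKN2A (ENSG00000147889.17, chr9:21967753-21995301) was at 48.5 and 35.6 CPM at D0, 58.2 and 35.0 with D4 medium, 40.0 and 29.5 with D7 medium, and 40.0 and 23.0 at D10. The groups overlapped on each day, but at D7 and D10 each experiment was below its own D0 library. At D10 the log2 fold change was -0.42 (standard error 0.36), with an interval from -1.26 to 0.42 and an adjusted p of 0.998 by edgeR. Within the experiments it was -0.28 and -0.63. With the replicate block its interval at D10 was -0.79 to -0.11, the unadjusted p was 0.0159 and the adjusted p 0.151, the lowest adjusted p of any member for any medium under the settings tried. Hence neither fit called CDKN2A, and the unblocked interval reached up to 1.34-fold higher at D10. Without D10 replicate 2 the log2 fold change was -0.07.

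CDKN2B (ENSG00000147883.10, chr9:22002903-22009363) encodes p15INK4B, an inhibitor known to be induced by TGF-β. Its values were 24.9 and 36.9 CPM at D0, 39.2 and 52.7 with D4 medium, 38.8 and 53.8 with D7 medium, and 41.3 and 24.1 at D10. At D4 and D7 both libraries lay above both D0 libraries and the log2 fold changes, 0.57 and 0.58 (standard error 0.34 each), were the largest positive ones of the members on those days. The adjusted p was 1.00 at both with edgeR, and 0.717 and 0.572 with the replicate block. At D10 the experiments parted, with a log2 difference of 0.73 in experiment 1 and -0.61 in experiment 2, and the fit gave 0.08. The interval at D10 ran from -0.71 to 0.87. Without D10 replicate 1 the D10 value was -0.34, and without D10 replicate 2 it was 0.42.

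CDKN2C (ENSG00000123080.10, chr1:50960745-50974633), which encodes p18INK4C, was the least abundant member per kb. It had 3.52 and 2.26 CPM at D0, 2.79 and 3.28 with D4 medium, 1.53 and 2.51 with D7 medium, and 1.58 and 2.05 at D10. The D10 libraries were both below both D0 libraries, whereas the experiments differed in direction at D4 and D7. A log2 fold change of -0.66 at D10 (standard error 0.43, interval -1.66 to 0.33) was the lowest of any member, with an adjusted p of 0.938 from edgeR. It was -1.15 in experiment 1 and -0.14 in experiment 2, from 20 to 42 reads in each of these 4 libraries.

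MDM2 (ENSG00000135679.22, chr12:68808176-68850686) stood at 101 and 152 CPM in D0 medium, 108 and 148 in D4, 108 and 151 in D7, and 117 and 215 in D10 medium. The experiments formed separate levels, with no library of experiment 1 reaching experiment 2. Log2 fold changes were 0.03, 0.04 and 0.40 (standard error 0.37 each), and the D10 interval ran from -0.45 to 1.24. With the replicate block the D10 interval was 0.02 to 0.72, with an unadjusted p of 0.0419 and an adjusted p of 0.250. Within the experiments the D10 difference was 0.21 and 0.51. Without D10 replicate 2 the D10 value was -0.11, with D10 from experiment 1 set against D0 of both experiments.

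RB1 (ENSG00000139687.13, chr13:48303726-48599436), the pocket protein that holds E2F factors in check, had 29.1 and 41.6 CPM at D0. D4 medium gave 24.5 and 45.0, D7 medium 35.7 and 41.8, and D10 medium 39.4 and 53.9. Each D10 library was above the D0 library of its own experiment, and the groups overlapped on each day. The log2 fold change at D10 was 0.40 (standard error 0.34, interval -0.38 to 1.18), with 0.44 and 0.37 within the experiments. With the replicate block the interval was 0.02 to 0.79, the unadjusted p was 0.0410 and the adjusted p 0.247. It was 0.16 without D10 replicate 2.

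LMNB1 (ENSG00000113368.11, chr5:126776623-126837020) was at 3.94 and 5.17 CPM at D0, 3.03 and 8.43 with D4 medium, 4.81 and 7.67 with D7 medium, and 3.33 and 6.07 at D10. Experiment 2 was higher in each medium and the groups overlapped on each day. The log2 fold changes were 0.33, 0.45 and 0.04 (standard error 0.54 each). At D10 the interval, from -1.21 to 1.30, reached down to 0.432-fold of D0, and the value was -0.24 in experiment 1 and 0.23 in experiment 2. That interval also reached up to 2.46-fold of D0. With the replicate block the D10 interval was narrower, from 0.617-fold to 1.63-fold of D0, and still crossed 0 on the log2 scale. Without D10 replicate 2 the D10 value was -0.45.

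**Figure D2:**
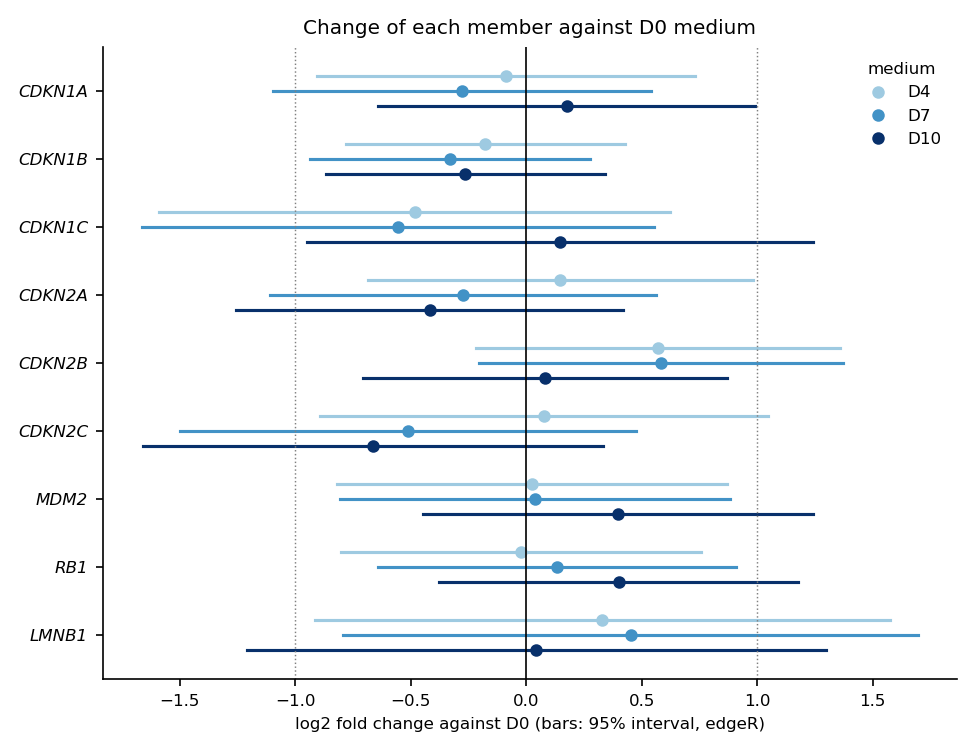
Fitted log2 fold change of each member against D0 medium (points) with its 95% interval from edgeR (bars), for D4, D7 and D10. All 27 intervals, from the fit without the replicate block, cross 0, and the lowest D10 estimate is that of CDKN2C (-0.66). With the block, not drawn here, the D10 intervals of CDKN2A (-0.79 to -0.11), MDM2 (0.02 to 0.72) and RB1 (0.02 to 0.79) do not cross 0. The dotted lines mark a log2 fold change of 1 in either direction.

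Over the 9 members the median log2 fold change was 0.03, -0.27 and 0.08 on the 3 days in turn, against 0.01, 0.00 and 0.00 over all genes tested. The median absolute log2 fold change was 0.15, 0.33 and 0.26, against 0.17, 0.18 and 0.23 over all genes. At D10 6 members had a positive estimate and 3 a negative one. The CPM of the compared groups did not overlap for 3 members at D4 and 3 at D7, in each case CDKN1B, CDKN1C and CDKN2B, where 22.3% and 28.9% of all genes did not overlap. At D10 they did not overlap for 2, CDKN1B and CDKN2C, against 31% of all genes. In an F test over the 4 groups, edgeR called 0 members and 0.087% of all genes, and 0 members had an unadjusted p under 0.05. With the replicate block this F test called 0 members and 3.33% of all genes, and CDKN2A was the 1 member with an unadjusted p under 0.05 (0.0176, adjusted p 0.20), where 14.9% of all genes had one.

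The experiments differed in many genes, members among them. In the fit with group and experiment, edgeR called 4 of the 9 members between experiment 2 and experiment 1, beside 34.8% of all genes. The count of members was not tested against that share. CDKN2A had a log2 difference of -0.60 (standard error 0.11, adjusted p = 0.00461), from 46.7 CPM on average in experiment 1 to 30.8 in experiment 2, and was lower in experiment 2 in 4 of 4 media. MDM2 was higher in experiment 2, with a log2 difference of 0.60 (0.11, adjusted p = 0.00525), as were RB1, with 0.52 (0.12, adjusted p = 0.0129), and LMNB1, with 0.85 (0.21, adjusted p = 0.0166). All 3 were higher in 4 of 4 media. CDKN1A had a log2 difference of -0.36 with an adjusted p of 0.146, and DESeq2 called the same number of members, 4. When 1 library was left out, between 3 and 6 members were called. For DESeq2 and for these reduced fits no share of all genes was counted, so their counts have no background beside them.

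Of the squared deviations of log2 CPM over the 8 libraries, the experiments held 76.0% for MDM2, 71.9% for LMNB1, 61.4% for CDKN2A and 59.1% for RB1. The median of all genes tested was 35.9%. The media held 60.1% for CDKN2C and 48.6% for CDKN2B, against a median of 32.1%, and the remainder lay in neither. These shares have unequal footing, since 4 media offer more ways to differ than 2 experiments. From the highest to the lowest library the members spanned 1.55-fold (CDKN1B) to 2.87-fold (CDKN1C), and the median gene 1.91-fold.

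**Figure D3:**
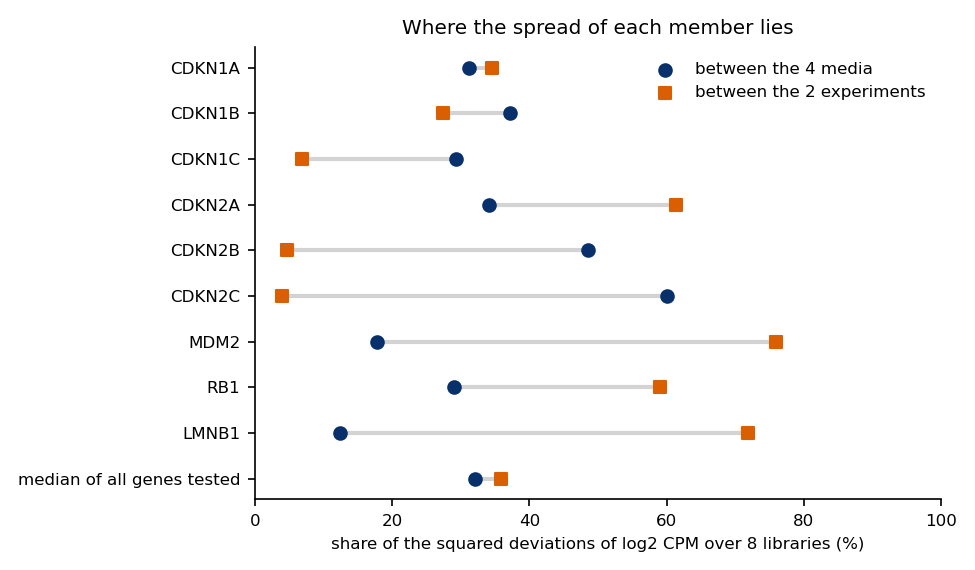
Share of each member's squared deviations of log2 CPM that lies between the 4 media (circles) and between the 2 experiments (squares), in percent, with the median of all genes tested at the bottom. For MDM2 the experiments hold 76.0% and the media 17.8%, while for CDKN2C the media hold 60.1% and the experiments 3.91%.

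The genes around these members were taken from lists of their known partners and targets. Of 30 p53 targets, CDKN1A and MDM2 among them, 0 were called on any day by edgeR, and 0 with the replicate block. Their median log2 fold change was 0.02, -0.08 and -0.00 at D4, D7 and D10, and 14 were higher and 16 lower at D10. At an unadjusted p under 0.05 edgeR had 0, 1 and 2 of them, and DESeq2 called 1 at D10. That gene was GDF15, which encodes a stress-responsive cytokine. It had 75.8 and 77.1 CPM at D0 and 134 and 1674 at D10, a log2 fold change of 3.56 (adjusted p 0.209 by edgeR, 0.0789 with the block and 0.0339 by DESeq2). Without D10 replicate 2 it was 0.81. The lowest estimate was that of TP53I3, a p53-induced oxidoreductase gene, with -0.72 (adjusted p 0.834 by edgeR). Leaving out D10 replicate 1 gave -1.38, and leaving out D10 replicate 2 gave -0.26.

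Among 10 regulators of p53, 8 were higher and 2 lower at D10, with a median log2 fold change of 0.28 and 0 called by edgeR, with the block or by DESeq2. The estimates ran from -0.34 for CHEK1, a checkpoint kinase, to 0.62 for MDM4, the partner of MDM2. MDM4 was at -0.07 and 0.90 within experiments 1 and 2, and at -0.54 without D10 replicate 2. Of 15 tested pocket proteins and E2F or DREAM components, 0 were called by these 3 fits, with a D10 median of 0.05. E2F5 had the highest value, 1.14, and TFDP1, the dimer partner of the E2Fs, the lowest, -0.30. With D10 replicate 2 left out, E2F5 was at 0.23 and TFDP1 at -0.02. In experiments 1 and 2 the D10 differences were 0.62 and 1.40 for E2F5 and -0.13 and -0.52 for TFDP1. Unadjusted p-values under 0.05 in edgeR were 0 at D10 among the p53 regulators and 1 among the pocket and E2F genes.

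For the cyclins and CDKs on which the inhibitors act (11 genes) the median log2 fold change was 0.18, -0.05 and -0.52 on these days, and edgeR called 0 of them, with 1 at an unadjusted p under 0.05 at D10. At D10 9 were lower, with CCNE2, a cyclin of the G1/S transition, the lowest (-1.06, standard error 1.02). CCNE2 had only 13 and 28 reads at D0 and 8 and 11 at D10. CDK2, the kinase held by p21CIP1 and p27KIP1, stood apart. It had 24.6 and 22.3 CPM at D0, 25.5 and 27.5 with D4 medium, 35.2 and 33.3 with D7 medium and 46.7 and 97.1 at D10. All 4 libraries at D7 and D10 were above both D0 libraries. Its log2 fold change at D10 was 1.62 (standard error 0.33), with an adjusted p of 0.100 by edgeR, 0.0140 with the replicate block and 0.00126 by DESeq2, and 0.99 without D10 replicate 2.

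For the 22 E2F target genes of S phase the median was 0.19, 0.15 and -0.08, and 0 were called by edgeR, with the block or by DESeq2. In edgeR 1, 0 and 0 had an unadjusted p under 0.05. CDC45, a replication fork protein, had the highest D10 value (0.34, or -0.11 without D10 replicate 2). Within experiments 1 and 2 CDC45 was at 0.02 and 0.57, from only 14 and 19 reads at D0 and 15 and 26 at D10. The 18 markers of G2 and M phase had medians of 0.74, 0.48 and -0.40, with 17 of 18 higher at D4, 17 higher at D7 and 17 lower at D10, of which 13, 16 and 12 lay on that side in both experiments. None of them was called on any day by these 3 fits, and edgeR had 0 at an unadjusted p under 0.05 on each day. The D4 median was 0.17 in experiment 1 and 1.22 in experiment 2, and the D10 median was -0.14 and -0.90. Without D10 replicate 2 the fitted D10 median was -0.00. These genes are transcribed together in dividing cells, so that they do not count as separate observations. MKI67, the gene of the proliferation antigen Ki-67, was at 4.69 and 6.55 CPM at D0, 4.81 and 24.8 with D4 medium, 8.55 and 16.3 with D7 medium and 9.58 and 3.47 at D10. It was higher than D0 at D10 in experiment 1 and lower in experiment 2. CCNB2, a mitotic cyclin, had the lowest D10 value of this list, -0.98, from -0.34 in experiment 1 and -1.99 in experiment 2. Leaving out D10 replicate 1 took it to -1.88 and leaving out D10 replicate 2 to -0.43. CCNB2 had only 43 and 56 reads at D0 and 36 and 13 at D10. Other markers of this list also had few reads, such as TTK with 9 and 24 at D0 and 5 and 12 at D10.

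**Figure D4:**
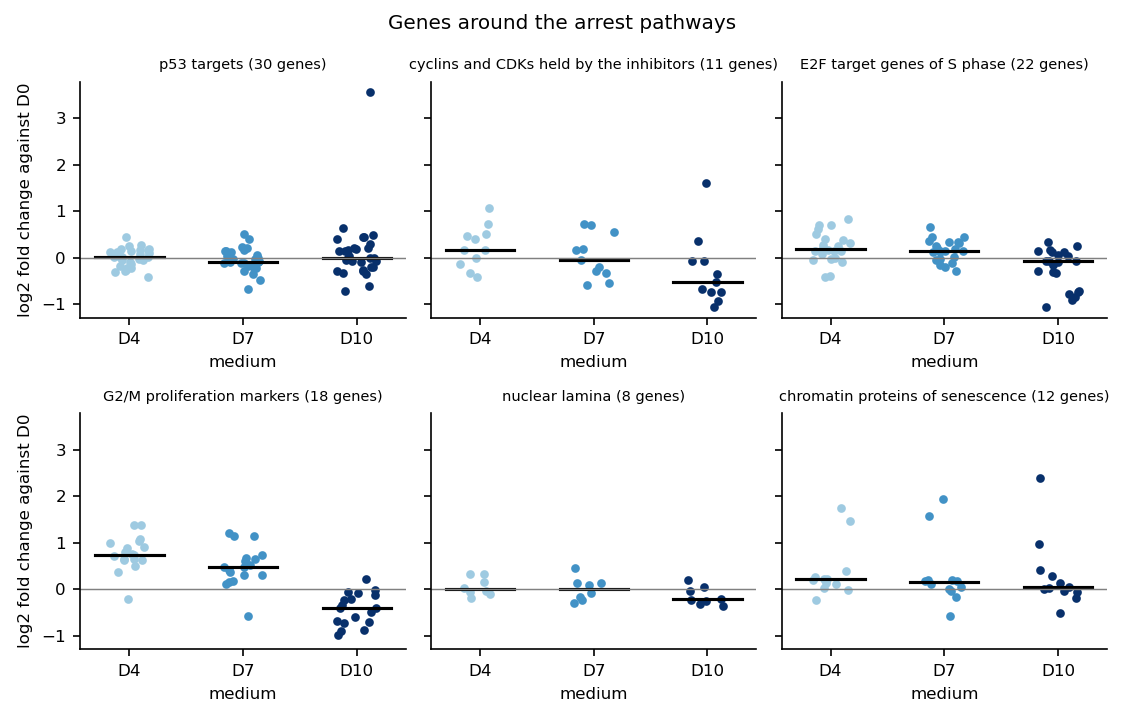
Log2 fold change against D0 (vertical axis) of every tested gene in 6 lists, at D4, D7 and D10, with horizontal bars at the median. The median of the 18 G2/M markers is 0.74, 0.48 and -0.40, that of the 30 p53 targets is 0.02, -0.08 and -0.00, and the high points at D10 are GDF15 (3.56), HMGA2 (2.40) and CDK2 (1.62).

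Of 8 genes of the nuclear lamina, 0 were called by edgeR, with the block or by DESeq2, and 0 had an unadjusted p under 0.05 in edgeR. The D10 median was -0.22. LMNA, the gene of lamins A and C, was the lowest (-0.36, or -0.05 without D10 replicate 2). TMPO, which encodes lamina-associated polypeptides, was the highest (0.19, or -0.36 without D10 replicate 2). Within experiments 1 and 2 LMNA was at -0.33 and -0.41, and TMPO at -0.02 and 0.32. Among 12 chromatin proteins linked to senescence edgeR called 0, with 2, 2 and 1 at an unadjusted p under 0.05. HMGA2, an architectural protein of senescence-associated heterochromatin, had 79.1 and 138 CPM at D0, 269 and 463 with D4 medium, 384 and 448 with D7 medium and 540 and 604 at D10. Each later library lay above both D0 libraries. Its log2 fold changes were 1.75, 1.94 and 2.40, with adjusted p of 0.757, 0.307 and 0.0550 by edgeR, 0.0197, 0.00684 and 8.1e-04 with the replicate block and 0.00258, 1.2e-04 and 3.7e-08 by DESeq2. Without D10 replicate 2 the D10 value was 2.32. HMGA1, its paralog, named after its values were seen, had 646 and 322 CPM at D0 and 1528 and 1142 at D4. It was at 1563 and 1321 CPM at D7, a log2 fold change of 1.57 with an adjusted p of 0.780 by edgeR and 0.0378 with the block, and at 1395 and 519 CPM at D10. UHRF1, a DNA methylation cofactor, had the lowest D10 value of the list, -0.51, and -0.15 without D10 replicate 2.

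Regulators of the INK4 locus were given with 14 of 15 tested. The exception, CDKN2B-AS1, the antisense RNA of the locus, did not exceed 0.394 CPM. Of the 14, edgeR called 0 on any day, with 0, 1 and 1 at an unadjusted p under 0.05, and the median at D10 was 0.11. ETS2, a transcription factor known to activate the p16INK4A promoter downstream of RAS, had 115 and 93.2 CPM at D0, 115 and 113 with D4 medium, 133 and 143 with D7 medium and 195 and 264 at D10. Both D10 libraries lay above both D0 libraries, a log2 difference of 1.14 (standard error 0.24) and an adjusted p of 0.102 by edgeR, 0.0104 with the block and 0.00189 by DESeq2. It was 0.91 without D10 replicate 2. CDKN2A was at -0.42 in the same contrast. TWIST1, a repressor of the locus, had the lowest value of the list (-0.37, or -0.15 without D10 replicate 1). Of 6 tested TGF-β targets, CDKN2B among them, 0 were called by edgeR, with the block or by DESeq2 and 1 had an unadjusted p under 0.05 at D10 in edgeR. The D10 estimates ran from 0.08 for CDKN2B to 0.88 for SMAD7, the feedback inhibitor of the pathway, and 3 of the 6 genes were higher than D0 in both experiments. The others differed in direction between experiments 1 and 2, with 0.73 and -0.61 for CDKN2B, -0.45 and 0.47 for CTGF and 0.42 and -0.01 for TGFBI.

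**Figure D5:**
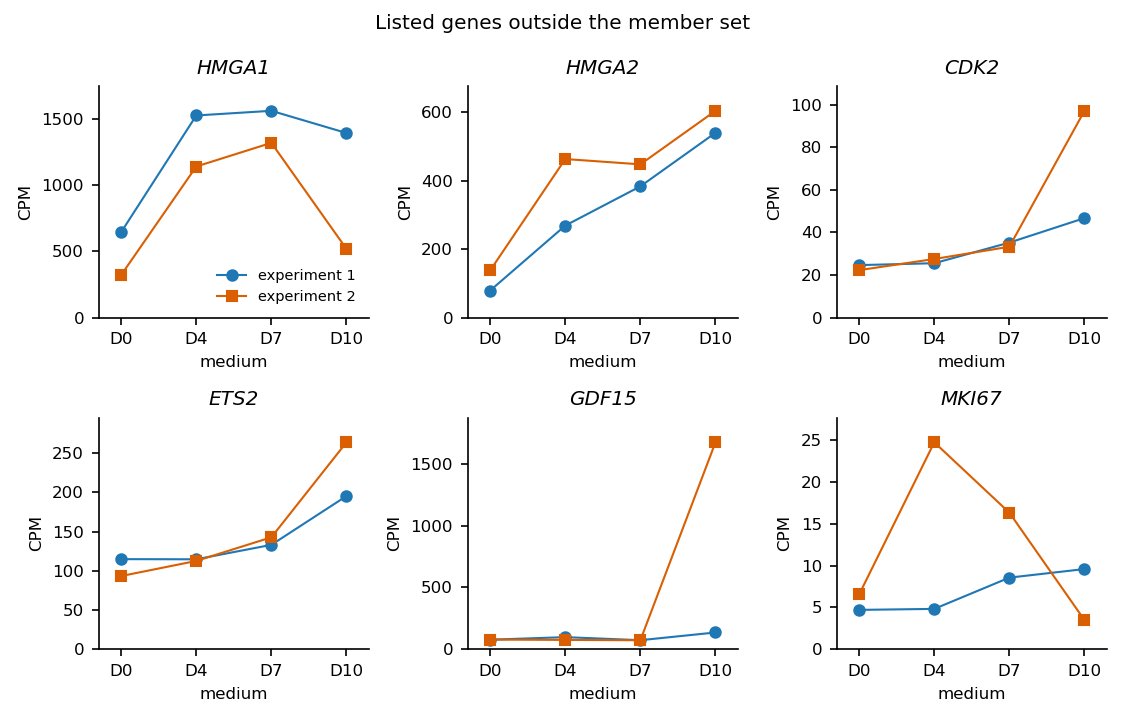
CPM (vertical axes, from 0) of HMGA1, HMGA2, CDK2, ETS2, GDF15 and MKI67 against the medium, 1 point per library and 1 line per experiment. HMGA2 is higher in every later library than at D0 (at least 269 against at most 138 CPM), and GDF15 reaches 1674 CPM in D10 replicate 2 against 134 in D10 replicate 1.

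The CDK inhibitor family also holds CDKN2D (p19INK4D) and CDKN3, a phosphatase that binds CDKs, which had log2 fold changes of 0.03 and 0.36 at D10 and were not called by edgeR, with the block or by DESeq2. Of the 5 SASP genes, which the study itself names for these samples and which are therefore no independent evidence, 2 passed edgeR's threshold at D10, IL1B and CXCL1. CXCL1 had 0.251 and 0.146 CPM at D0 and 28.9 and 90.3 at D10 (adjusted p 0.0181), and IL1B had 0 and 0.0728 CPM at D0 and 11.7 and 57.0 at D10 (adjusted p 0.0379). IL6, the gene of the cytokine interleukin-6, had the lowest D10 estimate of the 5, with 5.03 and 10.2 CPM at D0 and 39.1 and 517 at D10. Its log2 fold change was 5.18 (adjusted p 0.131 by edgeR and 0.00580 with the block), and 2.36 without D10 replicate 2. The block and DESeq2 called all 5, and all 5 were higher at D10 than at D0 in both experiments. Among the 9 members the log2 fold change farthest from 0 at D10 was the -0.66 of CDKN2C.

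The genes most like CDKN1A, CDKN2B and LMNB1 in pattern were sought by Pearson's r of log2 CPM over the 8 libraries among 9058 genes with a mean of at least 10 CPM. For CDKN1A they were HKR1 (r = 0.997), WDR24 (0.980) and BRI3 (0.977). CDKN2B was followed most closely by RNF115 (0.953), POSTN (0.928) and UACA (0.923), and LMNB1 by THRAP3 (0.961), BAG5 (0.959) and ZNF432 (0.952). The 8 libraries share experiments and scaling, and a search over so many genes yields high values, so these are descriptions without a p.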

How the data were processed

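RNA from IMR90 fibroblasts was sequenced as poly(A)-selected, stranded libraries, 8 in 4 groups. Per gene, the authors deposited read counts without normalization and, beside them, RPM values, which were not used here. The submitters' processing notes name STAR 2.5, DESeq2 and GRCh38. The read counter, the annotation and the strand setting are not given in the sources used here. The header of 1 column reads DO and was taken as D0 replicate 1. Of the identifiers, 99.6% are in GENCODE 29, which gave positions and exon lengths.

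Counts were filtered (filterByExpr, 13798 genes left), scaled with TMM and tested with edgeR 4.0.16 (glmQLFit, glmQLFTest; R 4.3.3) by group in 1 fit of all 8 libraries, with Benjamini-Hochberg adjustment over all genes and a threshold of 0.05. Alternatives were DESeq2 1.42.0 and its size factors, a replicate block, fits of only the compared groups, unfiltered genes, a minimum of 10 counts per library, and leaving out each library. The fits were tried on simulated counts, with planted changes larger than those fitted for any member and in well-counted genes. Those simulations do not show whether changes as small as the members' would be found. Log2 CPM used a prior count of 2. Adjusted p-values reported for single genes are from edgeR unless another tool is named.

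The replicate numbers were taken to pair the libraries, a pairing inferred here. The methods describe 2 independent experiments, while the sample titles give only replicate numbers. Libraries with the same number deviated together from the means of their groups (r of 0.418 to 0.722 in all 6 pairs of groups). That r is taken across genes, which are not independent. P-values rest on 2 libraries a group. The members and lists were chosen with earlier results of these data known. All 9 members are named, and from each of 13 lists the highest and the lowest log2 fold change at D10, any gene past edgeR's threshold, and 3 genes with the pattern most like CDKN1A, CDKN2B and LMNB1. RefSeq windows of 300 bases were searched for the motifs named. Figures were drawn with Python 3.11.15.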

Additional observations from a re-analysis of the deposited data

How the results depend on the processing

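Of 378 alternative values of the 27 log2 fold changes of the members, 0 passed the threshold. The lowest adjusted p was 0.151, and 14 of the 27 kept their direction under every alternative. The 21 changes of direction all came from leaving out 1 library. These fits had no term for the experiment, so leaving out 1 library also changed the balance of the experiments between the groups. At D10 MDM2 was higher in both experiments (0.21 and 0.51) although its value reversed. CDKN1A, CDKN1C, CDKN2B and LMNB1 differed in direction between the experiments on that day. The ranges without 1 library were, at D4, -0.53 to 0.25 for CDKN1A, -0.27 to 0.47 for CDKN2A, -0.21 to 0.43 for CDKN2C, -0.24 to 0.35 for MDM2, -0.52 to 0.35 for RB1 and -0.59 to 0.88 for LMNB1. At D7 they were -0.23 to 0.36 for MDM2 and -0.10 to 0.41 for RB1. At D10 they were -0.016 to 0.39 for CDKN1A, -0.77 to 0.72 for CDKN1C, -0.34 to 0.42 for CDKN2B, -0.11 to 0.79 for MDM2 and -0.45 to 0.43 for LMNB1. Of the listed genes at D10, MDM4 ran from -0.54 to 1.27, CDC45 from -0.11 to 0.69, MKI67 from -0.68 to 0.77, TMPO from -0.36 to 0.61 and HRAS from -0.43 to 0.10. The libraries behind the D10 reversals of members were D0 replicate 1 (CDKN2B, LMNB1), D0 replicate 2 (CDKN1A), D10 replicate 1 (CDKN2B) and D10 replicate 2 (CDKN1C, MDM2, LMNB1). Without 1 library of a group, the lone library is assumed to vary like the other groups.

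The number of genes called depended on the model. With the replicate block, which follows the pairing by experiment, it was 38 at D4, 172 at D7, 688 at D10 and 460 in the F test over the 4 groups, against 0, 0, 40 and 12 without it. The block moved no member past the threshold. DESeq2 called 47, 117, 390 and 345 genes, and no filter on low counts left 21, 93, 371 and 318. At D10, at least 10 counts in every library gave 20 and the compared groups only gave 0. Leaving out 1 library gave 0 to 155 at D10, with 0 without either D0 library, 155 without D10 replicate 1 and 11 without D10 replicate 2, and 1 to 74 in the F test, with 74 without D10 replicate 1. The cause was not tested. The 3 members with the fewest reads, CDKN2C, CDKN1C and LMNB1, had the 3 largest standard errors at D10 (0.43, 0.47 and 0.54), and counting error was not separated from the spread between libraries.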

Other observations

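Ratios of counts within a library do not depend on the scaling between libraries. The reads of CDKN1A over those of MDM2, both p53 targets, were 17.2, 16.7, 13.6 and 13.7 in experiment 1 and 8.68, 7.15, 6.97 and 8.57 in experiment 2, at D0, D4, D7 and D10. The ratio was higher in experiment 1 in all 4 media, and no library of experiment 2 reached the lowest of experiment 1. For CDKN2A over CDKN2B, neighbours in the INK4 locus, the ratio was 1.95, 1.49, 1.03 and 0.967 in experiment 1 and 0.964, 0.663, 0.549 and 0.951 in experiment 2. It was lower at D4 and D7 than at D0 in both experiments. At D10 experiment 1 stayed below its D0 value, while in experiment 2 the D10 ratio, 0.951, was close to its D0 ratio, 0.964. These ratios are values without a test, and lengths of the genes are part of them.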
